A study of Mus musculus with 6 samples.

Results

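Opposite-strand CpG pairs are the cytosines that face each other across the double helix at a CpG, 1 on each DNA strand and 1 base apart in the genome. They were taken from a methylation table of intestinal organoids by position and completeness: neighbouring rows on the same chromosome whose positions are 1 base apart, both with a value in all 6 libraries. The smallest value above 0 is 40%, and a 0 was treated as no value, so completeness also selects for higher levels on both strands. Of the 142108 pairs of neighbouring rows in the part of the table that was used, the rule kept 105028, and 96446 of these stood alone as runs of exactly 2 rows and are described here. The other pairs came from runs of 3 or more neighbouring rows, in which a row has a neighbour on each side. In each pair the row with the lower coordinate is the cytosine of the plus strand and the row with the higher coordinate is that of the minus strand. Both strand names below refer to the genome, not to a gene.

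The organoids carried the Apc Min genotype, a mutant allele of the Wnt pathway inhibitor Apc, and all 6 cultures were kept in organoid medium low in glutamine. The control group has 3 biological replicates, labelled as control treatment. The DM-aKG group has 3 biological replicates that received DM-aKG, and the series title names α-ketoglutarate. The assay was reduced representation bisulfite sequencing, in which bisulfite converts unmethylated cytosines and CpG-rich fragments are read. Neither the dose and time of treatment nor the number of mice behind the organoids is given in the sources used here, and the labelled tissue was not checked against marker genes, since the table holds methylation only.

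CpG sequences read the same on both strands, so a methyl mark can be copied when DNA is replicated. After replication the old strand is methylated and the new one is not. UHRF1 binds such hemimethylated CpGs and brings the maintenance methyltransferase DNMT1, which methylates the new strand. TET enzymes work the other way, oxidising 5-methylcytosine with α-ketoglutarate as a co-substrate, and DNMT3A and DNMT3B add methyl groups at unmethylated CpGs. A strand difference in a bulk library is a difference between the methylated shares of reads from each strand, not a count of hemimethylated molecules.

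Windows from 250 bases before to 50 bases after gene starts were taken from RefSeq (GRCm38.p6, the assembly of mm10). They hold 886 pairs with both positions and the base on each side inside, and all 886 read CG. Of the 3 pairs in such windows that differed between strands by the test described below, 2 lay in the last 120 bases before the start that placed their window. Such windows held 0.685% of all pairs called by that test and 0.923% of all pairs, and they are shown because their sequence could be read. A difference of 30 points or more was found in 2.47% to 4.38% of the 890 pairs starting in them, over the 6 libraries. Over all pairs this share was 1.52% to 2.79%, and the contrast was not tested. The 120 bases are printed 5′ to 3′ on the gene's strand to place the asymmetric CpG among its neighbours, of which 5 were measured on both strands at Fer and none in the printed bases at 3110070M22Rik. Capitals mark the CpGs measured on both strands, and lower case marks all other bases.
Fer (chr17:63937852-63937971, plus strand): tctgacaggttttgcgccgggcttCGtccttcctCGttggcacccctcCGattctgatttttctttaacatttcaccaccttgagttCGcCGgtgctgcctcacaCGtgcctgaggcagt
3110070M22Rik (chr13:119488385-119488504, minus strand): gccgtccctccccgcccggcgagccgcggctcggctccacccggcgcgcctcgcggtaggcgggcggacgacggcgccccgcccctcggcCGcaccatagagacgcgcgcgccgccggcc

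In the Fer window, the CpG at chr17:63937942 lay 30 bases before the start that placed the window. The measured pairs of this window lay inside the span of this tyrosine kinase gene, over 1000 bases from either end, so that start is an internal one. The CpG read 49%, 47% and 43% on the plus strand in control replicates 1 to 3 and 45%, 62% and 53% in DM-aKG replicates 1 to 3. Its minus strand read 91%, 73% and 82% in the controls and 84%, 80% and 82% with DM-aKG. Every minus-strand value lay above every plus-strand value, and the mean strand difference was -32.2 points ± 9.4 (SD, n = 6; limma adjusted p = 0.0320). The CpG 3 bases upstream, at chr17:63937939, had means of 90.3% and 95.5% on the plus and minus strands, and the CpG 15 bases before the start had 72.7% and 74.3%. The 7 other measured pairs of this window, 5 of them in the printed bases, differed by 0.8 to 6.2 points on average and none passed the test. The asymmetric Fer pair lies in the letters CCGG, which only 8 of the 886 pairs do (0.903%), while 11.1% of the CpGs in all such windows on the chromosomes used do, and 53.4% of these 19282 windows hold CCGG. The 8 CCGG pairs, the Fer pair included, had a mean absolute strand difference of 14.6 points, against 6.36 to 9.995 points for the 15 other contexts of 1 base on each side of the CpG.

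In the 3110070M22Rik window the CpG at chr13:119488413, also 30 bases before the start, read 48%, 67%, 56%, 46%, 49% and 43% on the genome's plus strand over the same 6 libraries. This CpG lies within the span of another gene, Tmem267. On the minus strand it read 82%, 86%, 88%, 78%, 84% and 87%. The strands did not overlap, and the mean difference was -32.7 points ± 8.0 (SD, n = 6; limma adjusted p = 0.0177). The 3 measured pairs after the start had strand means between 87.2% and 88.7% and differences of 0.5 to 1.2 points. The third pair in a gene-start window, in Rpl39l at chr16:10170260, was at 100% on the plus strand in all 6 libraries and at 87.2% ± 2.6 (SD, n = 6) on the minus strand, a smaller difference of 12.8 points (limma adjusted p = 0.0318).

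The table gives whole percents, no read counts and no value between 0 and 40. A 0 stands for a low level or for no call and was treated as no value, so a strand difference cannot exceed 60 points and the depth behind each value is unknown. Pairs in which 1 strand is unmethylated are therefore outside the rule. There were 34473 runs of 2 rows with a 0 in them. In 18263 of these, 1 strand had a value in all 6 libraries, at a mean of 78.1%, while the other was at 0 in at least 1 library, and in 327 it was at 0 in 5. The paired cytosines were more methylated than the 48948 complete rows with no neighbour, by 2.55 points on average and in each of the 6 libraries (exact two-sided sign-flip permutation p = 0.031, the smallest that 6 libraries allow). A pair needs both of its rows valued in all 6 libraries, and a row with no neighbour only itself. Since a low level counts as no value, the rule itself favours a higher level in pairs. How much of the 2.55 points this gives was not tested.

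Strands mostly read alike. The mean absolute strand difference was 7.42, 6.36 and 7.15 points in control replicates 1 to 3 and 7.07, 6.46 and 7.20 points in DM-aKG replicates 1 to 3. Between 54.2% and 59.1% of pairs lay within 5 points, and 9.11% to 13.3% were at 100% on both strands. A difference of 30 points or more was found in 2.79%, 1.52% and 2.33% of pairs in the control libraries and in 2.46%, 1.86% and 2.51% in the DM-aKG libraries, which is 1469 to 2691 pairs of 96446. Replicate 2 of each group was lowest by both measures, and the groups overlapped. The share of values at exactly 100% was also lowest in these libraries, at 20.7% in control replicate 2 and 23.7% in DM-aKG replicate 2 against 25.7% to 27.2% in the others, and its part in the strand differences was not tested.

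**Figure D1:**
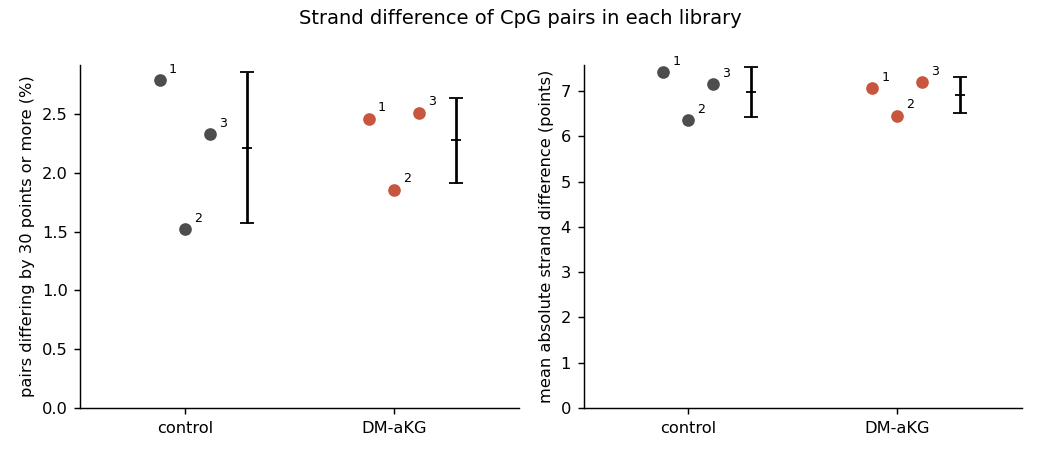
Strand difference in each library, as the percent of the 96446 pairs that differ by 30 points or more (left) and as the mean absolute difference in points (right). Points are libraries with their replicate numbers, and bars are mean ± SD of 3 libraries per group. The control libraries span 1.52% to 2.79% and the DM-aKG libraries 1.86% to 2.51%, so the groups overlap.

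DM-aKG and control libraries were not separated by strand asymmetry. The share of pairs differing by 30 points or more averaged 2.22% ± 0.642 among controls and 2.28% ± 0.364 among treated libraries (SD, n = 3 each; two-sided exact permutation p = 0.8). The mean absolute difference was 6.98 ± 0.548 points and 6.91 ± 0.397 points (SD, n = 3 each; exact permutation p = 0.9). The smallest p that 3 against 3 libraries allow is 0.1, and the sign of both differences depended on single libraries. The difference in the share was -0.282 points with control replicate 2 left out, and -0.0282 and -0.0536 points with replicate 1 or 3 of the DM-aKG group left out. That in the mean absolute difference was 0.154, 0.0187 and 0.159 points without control replicate 1, control replicate 3 and DM-aKG replicate 2. Over 11 such library measures the smallest Benjamini-Hochberg adjusted p was 0.367.

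Neither strand was higher on balance. The mean of the plus-strand level less the minus-strand level lay between -0.0518 and 0.0689 points in the 6 libraries, and pairs past 30 points were split 1339 to 1352 in control replicate 1 and 902 to 892 in DM-aKG replicate 2. Of the pairs in genes, 57150 could be assigned to a sense and an antisense strand, and the sense strand was higher by 0.0114 points (exact sign-flip p = 0.656). Both strands shared the higher level of the DM-aKG group. The plus strand averaged 88.7% ± 0.759 in the controls and 89.6% ± 0.238 with DM-aKG, and the minus strand 88.6% ± 0.742 and 89.6% ± 0.270 (SD, n = 3). The groups did not overlap on either strand (exact permutation p = 0.1 for each, adjusted p = 0.367).

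The strand difference within a library was about as large as the difference between replicates. The same cytosine compared with the other replicates of its group differed by 6.50 to 7.79 points on average over the 6 libraries, against 6.36 to 7.42 points between the strands of 1 library. Opposite strands taken from different replicates differed by 7.03 to 8.25 points. Across the 96446 pairs, which share a library, the levels of both strands correlated at Pearson r between 0.584 and 0.693.

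Runs of 4 neighbouring rows allow strands to be compared with the next CpG. There were 2448 complete runs of this kind, and the 43 that fell wholly in RefSeq gene-start windows all read CGCG, so that a CpG directly follows another. Cytosines of the same CpG differed by 5.19 to 6.02 points on average, cytosines of the adjacent CpGs on the same strand by 5.52 to 6.33 points, and those on opposite strands by 6.51 to 7.66 points. The opposite strand of the same CpG was thus closer than the same strand of the next CpG, by 0.171 points, in 6 of 6 libraries (exact sign-flip p = 0.031). The opposite strand of the next CpG was 1.18 points farther than its same strand, also in 6 of 6 libraries (exact sign-flip p = 0.031). With 6 such tests run, the adjusted p was 0.031 for each.

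Strand differences were most frequent at intermediate levels. Pairs were placed by their mean level in the other 5 libraries, so that the library measured did not place its own pairs. At 70% to 80% methylation, 4.33% to 6.64% of pairs differed by 30 points or more, against 2.31% to 4.42% at 80% to 90% and 0.431% to 0.955% at 95% to 100%. The share at 40% to 60% was 1.26% to 3.42%, where no value under 40% exists and a large difference has less room. Near the upper limit of 100% a large difference likewise has less room, so part of the fall at high levels is set by the scale. In none of the 6 level bands did the groups separate (exact permutation p between 0.7 and 1).

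**Figure D2:**
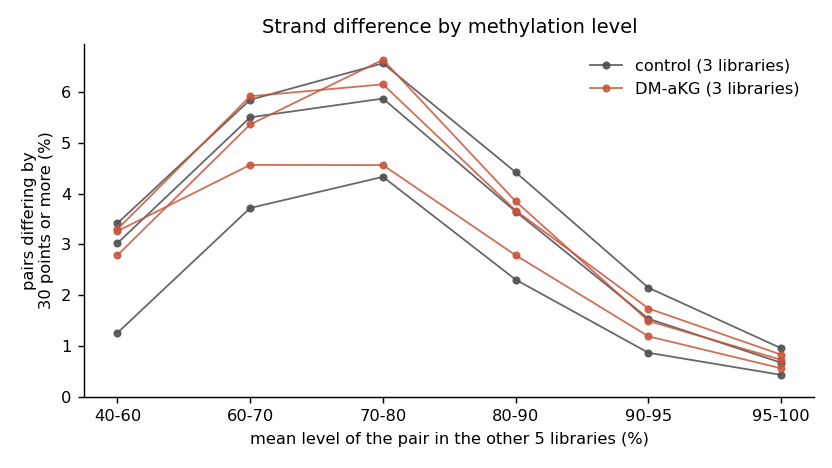
Percent of pairs differing by 30 points or more (vertical axis) by the mean level of the pair in the other 5 libraries (horizontal axis, percent), 1 line per library. The 6 lines rise from 40-60% to 70-80%, where they reach 4.33% to 6.64%, except that 1 DM-aKG line is level between 60-70% and 70-80%, and all fall to under 1% at 95-100%, with control and DM-aKG lines interleaved.

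Location relative to gene spans made small differences. Most pairs, 69603 (72.2%), lay inside gene spans, 11491 (11.9%) within 1000 bases of a gene end and 15352 (15.9%) outside genes. The share differing by 30 points or more was 0.276 points higher near gene ends than inside genes and 0.265 points higher outside genes than inside, each in 6 of 6 libraries (exact sign-flip p = 0.031, adjusted p = 0.031 over 3 location tests). The methylation level moved with these classes, from 88.3% to 90.4% over the libraries inside genes against 85.7% to 88.9% outside them. Within level bands, outside minus inside was 0.143 points at 70% to 80%, -0.0247 at 80% to 90% and -0.108 at 90% to 95% (smallest exact sign-flip p = 0.156), so this difference did not hold at matched levels. Near minus inside was -0.386, 0.475 and 0.157 points in the same bands, with the middle band alone at exact sign-flip p = 0.031 (adjusted p = 0.141 over 9 band tests).

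CpGs in denser stretches were less asymmetric. Of pairs with another pair within 20 bases, 1.22% to 2.29% differed by 30 points or more, against 1.98% to 3.85% of pairs whose next pair was over 100 bases away, a difference of -1.11 points in 6 of 6 libraries (exact sign-flip p = 0.031). These isolated pairs were also less methylated, at 83.9% to 86.6% against 89.7% to 91.5%. At a matched level of 90% to 95% the difference was -0.578 points, again in 6 of 6 libraries (exact sign-flip p = 0.031, adjusted p = 0.141 over 9 band tests). It was -0.400 points at 80% to 90% (exact sign-flip p = 0.125, adjusted p = 0.281) and -0.143 points at 70% to 80% (exact sign-flip p = 0.563). No band passed the adjustment, so a difference at matched levels was not established. Over the 13 chromosomes the mean share ranged from 2.01% on chromosome 16 to 2.47% on chromosome 2.

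Most large strand differences did not recur. In all, 9815 pairs (10.2%) differed by 30 points or more in at least 1 library, and 77.8% of these did so in exactly 1. Of the 2179 pairs past 30 points in 2 or more libraries, 723 (33.2%) did so in opposite directions. A pair chosen for a difference of 30 points or more in 1 library was past 30 points in the same direction in another library in 7.58% to 16.5% of cases and in the opposite direction in 2.12% to 4.36%. Across all pairs, signed differences of any 2 libraries correlated at r between 0.0919 and 0.114, within groups and between them alike (0.0919 to 0.108 and 0.0960 to 0.114).

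A small set did recur in libraries not used to choose it. There were 97 pairs past 30 points in the same direction in all 3 control libraries, with a mean of 40.2 points there. In the DM-aKG libraries, which played no part in that choice, their mean differences in the same direction were 32.9, 31.8 and 31.5 points, and 84 of the 97 (86.6%) kept the sign in all 3. Against the 1.86% to 2.51% of all pairs past 30 points in these libraries in either direction, 62.9% to 67.0% of the 97 were so in the chosen direction. Chosen the other way, 107 pairs past 30 points in all 3 DM-aKG libraries had a mean of 30.4 points in the controls, with 87 (81.3%) keeping the sign in all 3. Both choices share the 37 pairs past 30 points in the same direction in all 6 libraries.

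**Figure D3:**
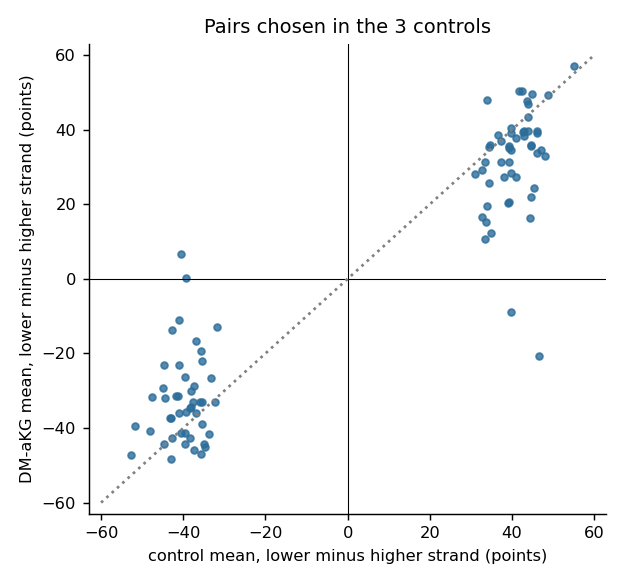
Mean strand difference (plus-strand level less minus-strand level, points) in the controls, which chose the 97 pairs, on the horizontal axis and in the DM-aKG libraries on the vertical axis. Each point is 1 pair, and the dotted line marks equal values. Nearly all points keep their sign, and most lie closer to 0 on the vertical axis than on the horizontal one.

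A linear model (limma) asked of every pair whether its strand difference over the 6 libraries departs from 0. It called 438 of 96446 pairs (0.454%) at an adjusted p under 0.05, 208 with the plus strand higher (0.216%) and 230 with the minus strand higher (0.238%). At an unadjusted p under 0.05 there were 8409 pairs (8.72%). The adjusted call needs all 6 libraries: leaving out any 1 of them left 0 calls, with 7767 to 8367 pairs at an unadjusted p under 0.05 and smallest adjusted p-values of 0.0542 to 0.0706. With a trend of variance on level it also made 0 calls (8248 at an unadjusted p under 0.05). With a block for replicate numbers it made 0 as well (8251 at an unadjusted p under 0.05), and on log2 odds it made 261. Of the 438, 433 had the same sign in all 6 libraries, and their size ran from 10.3 to 56.0 points with a median of 26.8.

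The called pairs were typically near full methylation on 1 strand and intermediate on the other. The more methylated strand had a median of 93% and reached 95% in 178 pairs, while the less methylated strand had a median of 62.6% and was under 60% in 186. No kept value lies under 40%, so a large strand difference by itself puts 1 strand high and the other low. Part of this pattern is therefore set by the scale, and how large a part was not tested. By location, 322 lay inside genes (73.5% against 72.2% of all pairs), 82 outside (18.7% against 15.9%) and 34 near gene ends (7.76% against 11.9%), and these shares were not tested. Their share per chromosome ran from 0.345% on chromosome 19 to 0.588% on chromosome 3.

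The 5 largest calls with the plus strand higher begin outside genes. At chr17:48222129, 10584 bases from Trem1, a receptor gene of myeloid cells, the plus strand read 100%, 100% and 100% in the controls and 98%, 98% and 100% with DM-aKG, and the minus strand 48%, 41%, 46%, 41%, 44% and 40%. No plus-strand value came near a minus-strand value, and the difference was 56.0 points ± 1.65 (SE, n = 6; limma adjusted p = 0.00444). At chr13:103717122, 9489 bases from Gm30551, the plus strand read 97% to 100% and the minus strand 45% to 55%, a difference of 49.0 points (limma adjusted p = 0.00444).

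The other 3 lay inside genes. In Ndufa12, a subunit gene of mitochondrial complex I, the CpG at chr10:94201337 read 96% to 99% on the plus strand and 53%, 49%, 63%, 55%, 41% and 47% on the minus strand (46.3 points; limma adjusted p = 0.00769). In Thada, at chr17:84449487, the plus strand took only the values 88% and 100%, and the minus strand 41% to 56% (47.3 points; limma adjusted p = 0.0259). In Hrob, a homologous recombination factor, at chr11:102264078, the plus strand ranged from 79% to 100% and the minus strand from 44% to 53% (46.0 points; limma adjusted p = 0.0140). The strands did not overlap in any of these pairs, and the spread was widest in Thada and Hrob.

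The 5 largest calls with the minus strand higher mirror them. At chr17:46346434, 5219 bases from BC040756, the minus strand was at 100% in all 6 libraries while the plus strand read 42%, 51% and 49% in the controls and 50%, 51% and 57% with DM-aKG, for a mean of -50.0 points ± 1.89 (SE, n = 6; limma adjusted p = 0.00623). At chr2:112160817, 3810 bases from the olfactory receptor gene Olfr1318, the minus strand was again at 100% in all 6 libraries and the plus strand at 42% to 63% (-44.3 points; limma adjusted p = 0.00769). Both CpGs thus showed spread on 1 strand only.
In Pip4k2b, a phosphoinositide kinase gene, the CpG at chr11:97718699 read 42% to 58% on the plus strand and 93% to 100% on the minus strand (-45.7 points; limma adjusted p = 0.00769). In Zmynd11, which encodes a reader of methylated histone, the CpG at chr13:9752264 read 44% to 61% and 93% to 100% (-45.5 points; limma adjusted p = 0.00769). In Kcnj10, a potassium channel gene, the CpG at chr1:172369320 read 44% to 61% and 95% to 99% (-44.5 points; limma adjusted p = 0.00943). On both strands of these 10 pairs the control and DM-aKG values overlapped or met at a shared value, except on the minus strand in Kcnj10, which read 99% in each control and 98%, 98% and 95% with DM-aKG.

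**Figure D4:**
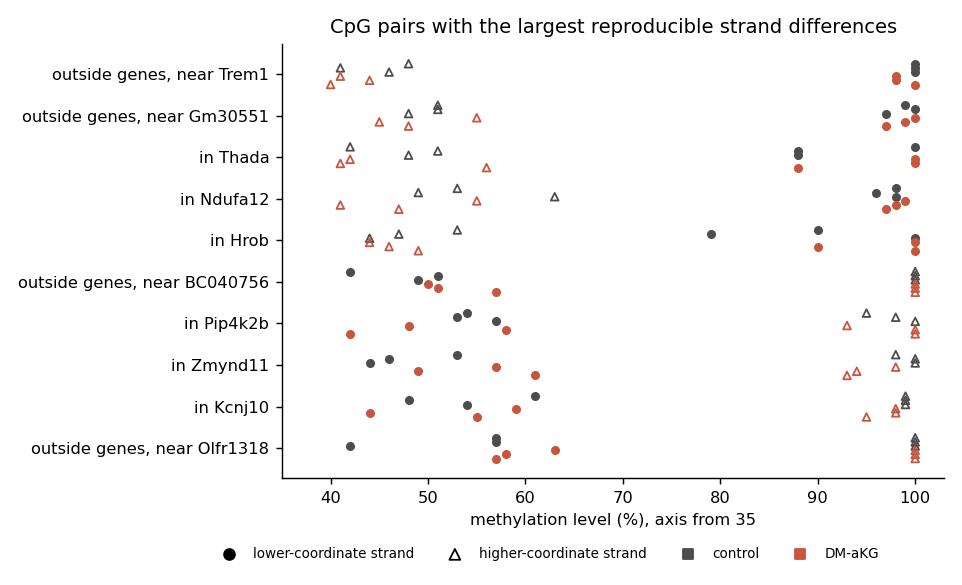
Methylation level (horizontal axis, percent) of the 10 CpG pairs with the largest called strand differences, 5 per direction. Filled circles are the lower-coordinate (plus) strand, open triangles the higher-coordinate (minus) strand, grey the 3 control and red the 3 DM-aKG libraries. Within each pair 1 strand sits between 40% and 63% and the other between 79% and 100%. Kept values run from 40% to 100% only, so differences this large mostly require such levels.

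The 37 pairs past 30 points in the same direction in all 6 libraries were all among the 438 calls, which used the same libraries. They were balanced between strands, 18 with plus and 19 with minus higher, and 27 lay inside genes, 9 outside and 1 near a gene end. The less methylated strand averaged 43.3% to 59.8% and the more methylated one 85.7% to 100%. With no kept value under 40%, choosing pairs by size itself favours such levels. Of these pairs, 3 are given as examples, picked after their values were seen. Mbd6, of the methyl-CpG-binding domain family, read 51%, 51%, 44%, 43%, 50% and 46% on the plus strand and 90%, 88%, 87%, 88%, 90% and 85% on the minus strand at chr10:127283770. Nsun6, an RNA cytosine methyltransferase, read 46% to 63% and 93% to 100% at chr2:15000534, and Hjurp, the chaperone of the centromeric histone CENP-A, read 91% to 99% and 48% to 62% at chr1:88266239. At each of these CpGs the strands were apart in every library, which the choice of the 37 pairs required.

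Asymmetry was shared over short distances within a library. Signed strand differences of neighbouring pairs 3 to 9 bases apart correlated at r between 0.150 and 0.216 in the 6 libraries (15439 neighbours), falling to 0.0764 to 0.107 at 20 to 49 bases and to -0.00571 to 0.0126 at 500 to 4999 bases. Between different libraries the correlation at 3 to 9 bases was 0.0210 to 0.0560. Neighbours this close can lie on the same reads, and their share in this was not tested. There were 15 cases of neighbouring pairs within 100 bases that were both called, and in all 15 they went the same way. Another measured pair lay within 20 bases of 206 calls, and 141 of these neighbours leaned the same way, but with a median difference of 2.58 points and 51 at 10 points or more.

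**Figure D5:**
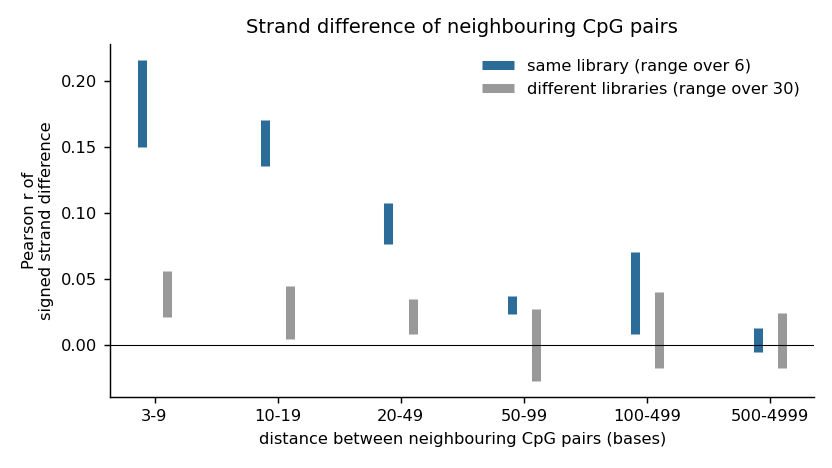
Pearson correlation of the signed strand difference between neighbouring CpG pairs (vertical axis) by their distance in bases (horizontal axis). Blue bars span the 6 libraries, each compared with itself, and grey bars span the 30 ordered combinations of different libraries. Blue bars fall from 0.150 to 0.216 at 3-9 bases to about 0 at 500-4999 bases.

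No single pair passed the test for a change of its strand difference with DM-aKG, which does not show that no pair changed. For the signed difference, 0 of 96446 pairs were called (0%), with 4612 (4.78%) at an unadjusted p under 0.05 and a smallest limma adjusted p of 0.843. For its absolute size, 0 were called, with 4520 (4.69%) at an unadjusted p under 0.05 and a smallest adjusted p of 0.809. The groups did not overlap in the size of the strand difference in 3481 pairs that were larger with DM-aKG (3.61%) and 3656 that were smaller (3.79%). For the mean of both strands, 0 pairs were called, with 5039 (5.22%) at an unadjusted p under 0.05, of which 3556 were higher with DM-aKG (3.69%) and 1483 lower (1.54%).

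The pairs nearest to a change of strand difference were chosen by smallest p among those whose groups did not overlap, and none passed the adjusted test. At chr2:118236349 in Fsip1, a sperm tail protein gene, the plus strand read 100%, 83% and 82% in the controls and 60%, 60% and 67% with DM-aKG, while the minus strand read 100%, 83% and 80% and then 100%, 92% and 100%. Strands were within 2 points in every control and 32 to 40 points apart in every DM-aKG library, a change of -35.7 points ± 3.25 (SE; limma adjusted p = 0.843). At chr1:175413530 in Rgs7, a regulator of G protein signalling, the plus strand read 79%, 68% and 67% and then 93%, 94% and 86%, and the minus strand 100%, 93% and 92% and then 83%, 88% and 71%. The more methylated strand differed between the groups there, with a change of 34.0 points (limma adjusted p = 0.843).
At chr10:76770878 in Pcbp3, a poly(C)-binding protein gene, the strand difference was 23, 17 and 20 points in the controls and -17, -11 and -15 points with DM-aKG. The largest of the 6 changes lay outside genes at chr15:102056997, 9732 bases from Gm41405, with -23, -35 and -27 points in the controls and 13, 13 and 14 points with DM-aKG (limma adjusted p = 0.843). The other 2, near Cep170 at chr1:176725818 and near Ankrd60 at chr2:173549705, changed by 24.7 and -32.3 points. All 6 are pairs whose groups were required not to overlap, so their separation is part of the choice.

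The same rule applied to the mean of both strands named 6 CpGs, none past the adjusted test (limma adjusted p = 0.918 for each). At chr15:79828922, in Npcd and in the polycomb gene Cbx6, the mean was 79.2% ± 1.15 in the controls and 98.2% ± 1.61 with DM-aKG (SD, n = 3), and both strands were higher in all 3 treated libraries. At chr10:81179213 in Eef2, the gene of a translation elongation factor, the mean was 97.2% ± 2.47 and 77.8% ± 1.76 (SD, n = 3), but the strands differed. Its minus strand read 100%, 95% and 100% and then 59%, 72% and 64%, while the plus strand read 100%, 96% and 92% and then 93%, 84% and 95%, overlapping between the groups. At chr10:128737634 in Dgka, a diacylglycerol kinase gene, it was the plus strand that read 100% in each control and 69%, 62% and 74% with DM-aKG, while the minus strand overlapped at 76% to 90%. The other 3, near Cldn11 and in Pebp4 and Col22a1, differed by 20.7, 16.2 and -26.2 points.

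Where the groups did not overlap, it was mostly on 1 strand only. With 3 against 3 libraries the smallest exact permutation p is 0.1, so such a separation is not by itself a sign of a change. On the plus strand the groups did not overlap in 4398 pairs that were higher with DM-aKG (4.56%) and 2416 that were lower (2.51%), and on the minus strand in 4504 (4.67%) and 2451 (2.54%). Of all 96446 pairs, 13179 were apart on 1 or both strands, and 12589 of these on 1 strand only. Both strands were apart in the same direction in 313 pairs that were higher and 98 that were lower, and in opposite directions in 179. Because separation was infrequent on each strand, pairs apart on 1 strand only would be the larger group even if the strands were unrelated. How far the counts depart from that was not tested. Of the 1197 pairs whose plus strand moved by 20 points or more between group means, 51 moved as far in the same direction on the minus strand and 16 as far in the opposite direction. Together these are 5.60% of the 1197, against 1.26% of all pairs whose minus strand moved by 20 points or more. The plus-strand and minus-strand group differences correlated at r = 0.166 across the 96446 pairs, whose strands come from the same libraries.

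Among the 438 pairs called asymmetric, both strands were slightly higher with DM-aKG. Over all 96446 pairs the level was also higher, by 0.977 points on the plus strand and 1.01 points on the minus strand. The more methylated strand averaged 89.8% ± 0.308 in the controls and 90.9% ± 0.157 with DM-aKG, and the less methylated one 62.3% ± 0.134 and 63.8% ± 0.125 (SD, n = 3). The strand difference was 27.7, 27.3 and 27.7 points in the controls and 27.2, 27.2 and 27.0 points with DM-aKG, lower by 0.401 points on average. The groups did not overlap in these 3 measures, each at exact permutation p = 0.1, the smallest possible.

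For genes with 3 or more pairs within their span and 1000 bases on each side, the mean absolute strand difference was tested between the groups. Of 6742 genes, 0 were called (0%), with 319 (4.73%) at an unadjusted p under 0.05 and a smallest limma adjusted p of 0.136. The median gene had 6.68 points, and 3300 genes were larger and 3415 smaller with DM-aKG. The gene with the smallest p was Rpl3, of the large ribosomal subunit, whose 3 pairs differed by 15.3, 14.7 and 15.7 points on average in the controls and by 5.33, 5.33 and 4.33 points with DM-aKG (limma adjusted p = 0.136). Next in that direction were 4930502E09Rik, with 13.7 ± 1.45 and 5.44 ± 1.26 points, and Klc2, a kinesin light chain, with 11.6 ± 0.694 and 4.94 ± 0.419 points over 6 pairs (SD, n = 3; limma adjusted p = 0.485 for both). The groups did not overlap in any of these genes, but each rests on few CpGs. The genes were chosen by the smallest p of this same comparison, so their separation largely follows from the choice. The share of all 6742 genes whose groups do not overlap is not given here.
In the other direction Fsip1 had 4.89, 3.89 and 7.56 points in the controls and 15.0, 16.8 and 18.7 points with DM-aKG over 9 pairs (limma adjusted p = 0.282), and its pair above is among them. Pdgfc, a growth factor gene, had 8.89 ± 1.90 and 18.6 ± 0.509 points over 3 pairs (SD, n = 3; limma adjusted p = 0.282). The remaining genes by this rule were Pcdhb5, Gm6712 and Lrrc71, with 5.78 to 6.58 points more under DM-aKG, and Gm12320 and Oacyl, with -15.2 and -7.58 points. None of these passed the adjusted test.

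The 5 gene lists were described by the size of strand differences in their members. None of the genes on any list passed the test of a change with DM-aKG over all 6742 genes. At an unadjusted p under 0.05 there were 2 of 24 imprinted genes, 2 of 19 in the α-ketoglutarate list, 1 of 17 methylation genes, 1 of 31 Wnt and stem cell genes and 1 of 17 differentiation genes, against 4.73% of all genes. For DNA methylation writers, readers and erasers, 17 measured genes had a median of 5.36 points, against 6.68 for all genes, and 0% to 1.54% of their 195 pairs differed by 30 points or more in a library. In this list 8 genes were larger and 9 smaller with DM-aKG. Its member with the largest strand difference was Tet1, the 5-methylcytosine dioxygenase, with 7.05, 7.05 and 10.4 points in the controls and 9.81, 6.90 and 8.14 points with DM-aKG over 21 pairs. Next was Uhrf2, a paralogue of Uhrf1, with 8.10 ± 1.29 and 6.95 ± 2.70 points (SD, n = 3). Control and DM-aKG values overlapped in both genes.

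Of α-ketoglutarate-dependent dioxygenases and α-ketoglutarate metabolism, 19 measured genes had a median of 6.20 points, 12 larger and 7 smaller with DM-aKG. P4ha2, a collagen prolyl hydroxylase, had 8.20, 6.20 and 4.40 points in the controls and 11.6, 9.80 and 11.4 points with DM-aKG over 5 pairs, groups that did not overlap (limma adjusted p = 0.917). Alkbh1, a nucleic acid demethylase, had 8.67 ± 3.18 and 7.67 ± 3.71 points (SD, n = 3). For imprinted genes, whose parental copies differ in methylation, 24 measured genes had a median of 7.04 points, 10 larger and 14 smaller. Sfmbt2, expressed from the paternal copy in mouse, had 13.4 ± 6.57 points and Nnat, also paternally expressed, 10.5 ± 3.40 points (SD, n = 6), and DM-aKG replicate 3 was highest in Sfmbt2 at 26.0 points. No pair in these 3 lists was called asymmetric, against 0.454% of all pairs, in lists of 195 to 286 pairs.

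Wnt pathway and intestinal stem cell genes had a median of 6.87 points over 31 measured genes, 15 larger and 16 smaller with DM-aKG, and 4 of their 580 pairs (0.690%) were called asymmetric, against 0.454% of all pairs. Fzd8, a Wnt receptor, and Wnt3a, a ligand of canonical Wnt signalling, had the largest mean strand differences, 15.9 ± 6.03 and 12.4 ± 2.97 points (SD, n = 6), over 6 and 18 pairs. The called pairs lay in Ror2, a co-receptor of Wnt5a, at chr13:53146782 (55.8% on the plus and 97.8% on the minus strand) and chr13:53235981 (77.2% and 97.2%), in Smoc2, a gene of the intestinal stem cell signature, at chr17:14400523 (98.0% and 65.2%), and in the Wnt receptor gene Fzd6 at chr15:39035177 (95.3% and 79.8%). For intestinal differentiation genes, 17 measured genes had a median of 7.11 points, 8 larger and 9 smaller, and no pair was called. Hnf4a, a transcription factor of the gut epithelium, had 8.90, 2.20 and 5.90 points in the controls and 10.1, 10.6 and 14.1 points with DM-aKG over 10 pairs, without overlap (limma adjusted p = 1). Agr2, a goblet cell gene, had 8.88 ± 3.64 and 9.71 ± 3.06 points (SD, n = 3).

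Genes with several called pairs were few, where 0.454% of all pairs were called. Bcl11b, a transcription factor, held 3 calls among 123 pairs, all with the minus strand higher, as did Drosha, the nuclear microRNA-processing enzyme, among 25 pairs. The 3 Bcl11b calls lay close together, at chr12:107916461, chr12:107916464 and chr12:107916476, where they can lie on the same reads. Pfdn4, a prefoldin subunit, held 3 calls among 17 pairs, all with the plus strand higher, and Nkain2 and Slc39a11 held 3 each in mixed directions. These genes were picked after the calls were seen, and their called pairs are not independent where they lie on the same reads.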

How the data were processed

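Reduced representation bisulfite sequencing was done on 3 control and 3 DM-aKG libraries. The authors deposited percent methylation for each cytosine and library, in whole numbers from 40 to 100 with 0 otherwise, and no coverage. The submitters' processing notes name mm10, CASAVA 1.8 and Novoalign 3.08.02 without their roles, and the sources used here do not name a methylation caller or the enzyme. Depth is unknown, so no interval from read counts is given. The last 423642 of the 813850 rows were not used, because the libraries no longer line up there. The rows used cover chromosomes 1, 2, 10 to 19 and part of 3.

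Pairs of rows 1 base apart were kept where both rows had a value in all 6 libraries, as runs of exactly 2 rows. The position column was checked against RefSeq gene-start windows and gives the cytosine, counted from 1. Gene spans came from RefSeq (GRCm38.p6), and overlapping genes share pairs. The members, lists and tests were chosen with earlier results of these data known. Beyond the planned tests, the level bands, the choice by 1 group read in the other, the neighbours, the runs of 4 rows, the sense strand and the gene-start windows were added after the data were seen.

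Per-library values were compared by exact permutation, two-sided, over all 20 ways to draw 3 of 6 libraries, or by a sign-flip test over 6 libraries. Pairs and genes were tested on percentage points with limma 3.58.1 in R 4.3.3, with no block for replicate numbers and Benjamini-Hochberg adjustment over all pairs or genes and a threshold of 0.05. These tests were tried on simulated data, where they missed many of the pairs and genes that had been shifted. An absence of calls therefore does not show an absence of change. The p-values measure the spread between these biological replicates, whose origin in separate cultures or animals is not stated. Named pairs were the 5 per direction with the largest called strand difference of the same sign in all 6 libraries, and the 3 per direction with the smallest p for a change with DM-aKG, groups not overlapping. Named genes were the 5 per direction with the smallest p and the 2 members per list with the largest strand difference. Any others are said to be chosen after their values were seen. Alternatives were the threshold in points, treatment of 0, runs of rows, gene distances, scale, variance model, replicate block and leaving out each library.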

Additional observations from a re-analysis of the deposited data

How the results depend on the processing

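The count of asymmetric pairs, 438, was 261 on log2 odds, 0 with a variance trend, 0 with a replicate block and 0 without any 1 library (0 to 0). At an unadjusted p under 0.05 there were 8248 pairs with the trend and 8251 with the block. With robust variance it was 431, with runs of rows 491, without pairs equal in all libraries 533 and without a group term 568. The cause of these shifts was not tested. The 4 counts of changes with DM-aKG were 0 under every alternative run, which is no sign of stability.

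The DM-aKG minus control difference in the share past 30 points, 0.0639 points, was -0.0614 with 0 counted as a level, -0.0933 at a threshold of 20 points and -0.282 to 0.351 when leaving out each library. That in the mean absolute difference, -0.0671 points, was 0.226 with 0 as a level, 0.0109 with each library over its own pairs and -0.374 to 0.159 when leaving out each library. That in the signed mean, -0.0293 points, was 0.0825 with 0 as a level and -0.0484 to -0.00535 when leaving out each library.

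The excess near gene ends, 0.276 points, was 0.0386 at 50 points, -0.386 and 0.157 at levels of 70% to 80% and 90% to 95%, and 0.216 to 0.327 when leaving out each library, where 5 libraries allow no exact p under 0.0625. The excess outside genes, 0.265 points, was -0.00319 at 50 points, 0.255 with gene ends at 500 bases (exact sign-flip p = 0.0625), 0.143, -0.0247 and -0.108 at 70% to 80%, 80% to 90% and 90% to 95%, and 0.197 to 0.306 when leaving out each library. The level bands were chosen after seeing the data.

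Same-numbered libraries of the groups did not deviate together in pair level (r = 0.0293, -0.0113 and 0.0258). These correlations cannot exclude a shared culture or day, and the labels do not say whether the numbers pair the libraries. With the replicate block the library differences were 0.0639 points in the share (exact p = 0.75), -0.0671 in the mean absolute difference (exact p = 1) and -0.0293 in the signed mean (exact p = 0.25), where 3 pairs allow no p under 0.25. The unknown depth limits how small a strand difference can be resolved, and values under 40% hide pairs with an unmethylated strand.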

Other observations

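In the rows that were not used, 25716 pairs met the same rule. There 3.81% and 2.21% of pairs differed by 30 points or more in control replicates 1 and 2, against 6.82% in control replicate 3 and 6.94%, 6.39% and 6.00% in DM-aKG replicates 1 to 3. In the rows used, the corresponding shares lay between 1.52% and 2.79% in all 6 libraries.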
